A study of Mus musculus with 28 samples.

Results

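Transcripts of splenic plasmacytoid dendritic cells (pDC) from Irf8 fl/fl Itgax-cre mice were compared with those of splenic type 1 conventional dendritic cells (cDC1) from Irf8 fl/fl mice without the Cre. The comparison took in 12 of the 28 RNA-seq libraries, chosen by their titles: 4 of Cre-positive pDC (pDC_TG, replicates 1 to 4) and 8 of control cDC1 (cDC1_WT, replicates 1 to 8). The series' design text states 4 replicates per sample, whereas the labels number 8 libraries for each control group, and all 8 were used as separate samples. All mice were C57Bl/6, untreated and 6 to 12 weeks old, and both groups carried the Irf8 allele flanked by loxP sites. Control pDC (pDC_WT, 8 libraries) and control cDC2 (cDC2_WT, 8 libraries), both from Irf8 fl/fl mice, are given only as reference levels. The groups compared differ in cell type and in Cre at once, so the part of each cannot be told apart in the direct contrast. For that reason many results are set beside the pDC_WT level, and the step from pDC_WT to pDC_TG was tested in the same model. Where the pDC_WT level is not given, a difference may be one that control pDC show too. No cDC1 with the Cre was analysed here.

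IRF8 is a transcription factor of the interferon regulatory factor family that both cDC1 and pDC hold at high levels. In cDC1, which take up dying cells and present their antigens to CD8 T cells, it works with BATF3 and is needed for the lineage to form. In pDC, which sense nucleic acids in endosomes and can secrete large amounts of type I interferon, the lineage is set by the E protein TCF4, and IRF8 is studied for its part in the function of the formed cell. Itgax encodes CD11c, and Itgax-cre is active in cells that express CD11c, so deletion follows the start of CD11c expression. The comparison shows how a pDC with less Irf8 stands to the other dendritic cell that normally relies on this factor.

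The pDC_TG libraries held 22805201 to 28725550 reads assigned to genes, with 12738 to 12959 genes detected. The cDC1_WT libraries held 23592099 to 30152305 reads and 12321 to 12690 genes. Levels are library-scaled counts (CPM) adjusted by the trimmed mean of M values (TMM), given as mean ± SD over 4 pDC_TG, 8 cDC1_WT and 8 pDC_WT libraries unless each library is listed. With 3 counts over a group as the lowest level stated, the floor was 0.0263 CPM in pDC_TG and 0.0158 CPM in cDC1_WT, which covers counting error only. The source labels number the mice but do not say whether a library holds 1 animal or a pool, so p-values measure the spread between these libraries. Markers of other lymphocytes differed in summed level. The 10 T cell markers summed to 1010.4 to 1360.3 CPM in pDC_TG, 647 to 917 CPM in pDC_WT and 5.69 to 15.3 CPM in cDC1_WT, and the 9 NK cell markers to 536 to 772, 132 to 324 and 4.74 to 13.3 CPM. The 11 B cell markers summed to 319.7 to 389 CPM in pDC_TG, 322 to 415 CPM in pDC_WT and 143 to 195 CPM in cDC1_WT. In both pDC groups Cd8b1 made up most of the T cell sum and Klrd1 most of the NK cell sum, at levels given below. Within these lists Cd3e was 0.496 ± 0.578 CPM in pDC_TG and 0.392 ± 0.755 CPM in cDC1_WT, and Ncr1 0.1498 ± 0.2996 and 0 CPM. The part of other lymphocytes in the results was not tested. The summed level of 9 neutrophil genes was 196 CPM in pDC_TG replicate 4 against 0.230, 0.340 and 4.59 CPM in the other pDC_TG libraries. In cDC1_WT that sum was 21.99 CPM in replicate 4 and 0.218 to 1.64 CPM in the others. Of the 14 monocyte and macrophage genes, the sum ranged from 947 to 1061 CPM in pDC_TG and from 786 to 1125 CPM in cDC1_WT, with Adgre1 at 0.357 ± 0.489 and 3.27 ± 1.57 CPM and C1qa at 0.272 ± 0.427 and 1.15 ± 0.878 CPM. The 4 globin genes Hba-a1, Hba-a2, Hbb-bt and Hbb-bs had 0 counts in both groups.

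Irf8 (chr8:120736358-120756694, + strand, protein coding) was measured first because it checks the labels. The pDC_TG libraries held 1489.9, 1402, 1166 and 1787 CPM, and the cDC1_WT libraries ranged from 3702 to 4249.6 (median 4056) CPM. Every pDC_TG library was below every cDC1_WT library. The mean in pDC_TG was 36.3% of that in cDC1_WT (log2 fold change -1.46, SE 0.12, adjusted p = 1.45e-11). With the group labels rearranged in all 495 ways (exact permutation, two-sided) p was 0.00202, the smallest p that this design allows. Control pDC held 6145 ± 459 CPM, above cDC1_WT, and the step from there to pDC_TG also passed the test (log2 fold change -2.07, SE 0.13, adjusted p = 4.43e-13). The cells labelled Irf8 fl/fl Itgax-cre still held Irf8 transcripts, at a level above that of control cDC2 (72.2 ± 14.6 CPM). The counts are summed over the whole gene, and the exon flanked by loxP is not given in the sources used here. Cells that kept the gene and transcripts that lost only part of it cannot be told apart in these counts. Itgax, whose promoter drives the Cre, stood at 408 ± 32.9 CPM in pDC_TG, 442 ± 70.05 CPM in cDC1_WT and 157 ± 50.2 CPM in pDC_WT.

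Across the transcriptome the libraries labelled pDC_TG and cDC1_WT differed widely. Of 13159 genes tested, 2247 (17.1%) were higher in pDC_TG and 2044 (15.5%) were lower, with a call made at an adjusted p below 0.05 and at least a 2-fold change. Tests were edgeR's quasi-likelihood F-tests with Benjamini-Hochberg adjustment over all genes tested. By adjusted p alone, 3561 genes (27.1%) were higher and 3494 (26.6%) lower. For the step from pDC_WT to pDC_TG, 1016 genes (7.72%) were higher and 927 (7.04%) lower by adjusted p alone. When libraries were scaled by total counts alone, the median log2 fold change over all genes moved from 0.00 to 0.30, and 63.6% of the calls were higher in place of 52.4%. The distance between 2 libraries was taken as the root mean square difference in log2 level over all genes tested. It averaged 2.41 between pDC_TG and cDC1_WT (2.34 to 2.48), 2.42 between pDC_WT and cDC1_WT (2.32 to 2.54), and 1.298 between pDC_TG and pDC_WT (1.19 to 1.47). Within pDC_TG it averaged 1.09, and control cDC1 and cDC2 lay 1.81 apart. The range of pDC_TG distances to cDC1_WT lay within that of pDC_WT.

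**Figure D1:**
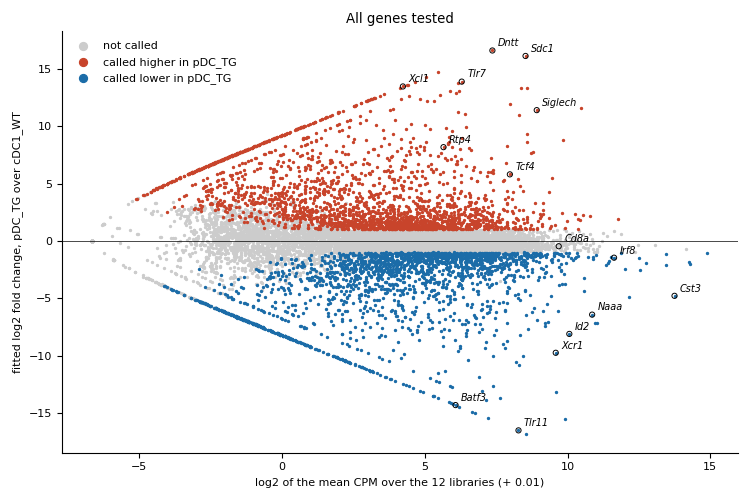
Fitted log2 fold change of pDC_TG over cDC1_WT (vertical axis) against the log2 of the mean CPM over the 12 libraries (horizontal axis) for each of the 13159 genes tested, with the 2247 called higher in red, the 2044 called lower in blue and uncalled genes in grey. Circles mark genes discussed in the text. Irf8 lies among the most abundant genes with a log2 fold change of -1.46, while Cd8a lies near 0, and the straight diagonal edges are genes with no count in one of the 2 groups, whose fitted fold change depends on the prior count.

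The genes by which cDC1 are recognised were nearly all low in the Cre-positive pDC. Of 26 cDC1 identity genes, 25 were called lower and 1 was not called, against 15.5% of all genes called lower, with a median log2 fold change of -7.21 (0.00 over all genes). The same median for pDC_WT over cDC1_WT was -7.03. The list was chosen with earlier results of these data known, so this count is a description. Xcr1, the receptor for the chemokine XCL1 (chr9:123852315-123862029, - strand), stood at 0.422, 0.908, 1.93 and 1.98 CPM in the 4 pDC_TG libraries and ranged from 977 to 1381 (median 1166) CPM in cDC1_WT (log2 fold change -9.75, SE 0.44, adjusted p = 1.52e-17). Clec9a encodes a receptor for actin filaments exposed by dead cells. It stood at 3.61, 10.2, 5.99 and 6.61 CPM in pDC_TG and ranged from 221 to 273 (median 246) CPM in cDC1_WT (log2 fold change -5.24, SE 0.27, adjusted p = 2.27e-16). Control pDC held 91.6 ± 19.9 CPM of Clec9a, so here the deleted pDC lay further from cDC1 than control pDC did (log2 fold change -3.79, SE 0.25, adjusted p = 3.20e-12). Batf3, the partner of IRF8 in cDC1 (chr1:191097847-191108945, + strand), had 0 counts in all 4 pDC_TG libraries and 101 ± 10.7 CPM in cDC1_WT, at least 3844-fold lower in pDC_TG. Naaa, a lysosomal acid amidase, was 32.3 ± 2.83 against 2777 ± 238 CPM, and Ppt1, a palmitoyl-protein thioesterase, was 227 ± 31.9 against 6737 ± 679 CPM. Cd24a was 18.9 ± 9.99 against 456 ± 36.95 CPM, but cDC1 were sorted as CD24-positive and this is no finding. The identity gene that was not called was Cd8a, which encodes the CD8 alpha chain. Its levels were 459, 683, 852 and 645 CPM in pDC_TG and from 746 to 1022 (median 928) CPM in cDC1_WT, so the groups overlapped (log2 fold change -0.46, SE 0.23, adjusted p = 0.092). Control pDC held 267 ± 35.7 CPM of Cd8a, lower than pDC_TG (log2 fold change 1.31, SE 0.22, adjusted p = 6.83e-05).

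The genes by which pDC are recognised were high in the Cre-positive cells. All 32 pDC identity genes were called higher in pDC_TG than in cDC1_WT, against 17.1% of all genes, with a median log2 fold change of 7.38, and the same median for pDC_WT over cDC1_WT was 7.76. This list was also chosen with earlier results of these data known, so the count is a description. Siglech, the pDC surface lectin (chr7:55768178-55778925, + strand), stood at 1584, 1425, 1238 and 1569 CPM in pDC_TG and ranged from 0 to 1.52 (median 0.526) CPM in cDC1_WT. No library of one group came near the other. Bst2, the antigen known as PDCA-1 and tetherin, was 743 ± 76.7 CPM in pDC_TG, 38.2 ± 5.74 CPM in cDC1_WT (log2 fold change 4.28, SE 0.12, adjusted p = 5.17e-23) and 1156 ± 181 CPM in pDC_WT. Ccr9, a homing receptor for the gut, was 943 ± 103 against 46.1 ± 5.75 CPM (log2 fold change 4.36, SE 0.25, adjusted p = 4.39e-15). Between pDC_WT and pDC_TG, 2 of the 32 genes were higher and 9 lower by adjusted p alone (7.72% and 7.04% of all genes). Of these, Bst2 (log2 fold change -0.64, SE 0.12, adjusted p = 3.79e-04) and Clec10a, a galactose-binding lectin also found on cDC2 (log2 fold change -2.84, SE 0.29, adjusted p = 2.05e-08), were lower, while Dntt was higher (log2 fold change 1.25, SE 0.12, adjusted p = 4.31e-08). Siglech did not pass this threshold (log2 fold change -0.66, SE 0.36, adjusted p = 0.251).

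**Figure D2:**
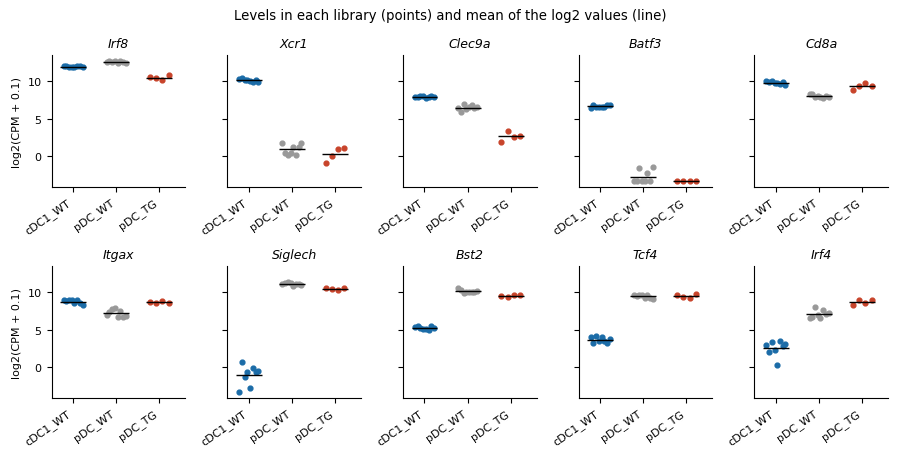
Levels of 10 genes as log2(CPM + 0.1) on the vertical axis in each library of cDC1_WT (8 points), pDC_WT (8 points) and pDC_TG (4 points), with the mean of the log2 values as a line. Irf8 is lowest in pDC_TG, Xcr1, Clec9a and Batf3 separate cDC1_WT from both pDC groups, Siglech, Bst2 and Tcf4 do the reverse, and Cd8a, Itgax and Irf4 are higher in pDC_TG than in pDC_WT.

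The 10 largest differences on each side, taken among called genes that reached 10 CPM in either group, were near presence or absence. Dntt, the DNA polymerase that adds untemplated bases to rearranging receptor genes, had 0 counts in cDC1_WT and 494, 509.6, 508 and 471 CPM in pDC_TG, at least 31367-fold higher. Control pDC held 208 ± 35.1 CPM of Dntt. Sdc1, the plasma cell surface proteoglycan CD138, stood at 1221, 1195, 1145 and 873 CPM in pDC_TG, at 0 counts in 7 of 8 cDC1_WT libraries, and at 51.2 ± 9.81 CPM in pDC_WT. Lrrc15, a leucine-rich repeat membrane protein, was 133 ± 21.4 CPM in pDC_TG against 0 counts in cDC1_WT, at least 8441-fold higher, and 5.11 ± 2.97 CPM in pDC_WT. The orphan receptor gene Gpr25 was 98.7 ± 12.01 CPM against 0 counts, though 41.6% of its exon bases overlap another gene and the library kit does not mark strand. Xcl1, the ligand of XCR1, stood at 39.9, 50.7, 63.3 and 71.6 CPM in pDC_TG and at 0 counts in cDC1_WT, at least 3568-fold higher, with 2.35 ± 1.88 CPM in pDC_WT (log2 fold change 4.59, SE 0.64, adjusted p = 1.66e-05). The ligand and its receptor were on opposite sides of the comparison. Others on the higher side included Cd28, Cdh1, Pnck and Tlr7. Pnck was 75.9 ± 7.098 CPM in pDC_TG and 76.4 ± 6.47 CPM in pDC_WT.

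On the lower side, Tlr11, a sensor of microbial profilin, had 0 counts in pDC_TG and from 374 to 574 (median 462) CPM in cDC1_WT, at least 17729-fold lower. Apol7c, an apolipoprotein L of cDC1, was 0, 0.0757, 0 and 0.0319 CPM in pDC_TG against 1440.2 ± 279.9 CPM. Fzd1, a Wnt receptor, had 0 counts in pDC_TG against 225 ± 32.5 CPM in cDC1_WT, and the fusion factor Ocstamp 0 counts against 162 ± 17.9 CPM. Snx22, a sorting nexin, had 0 counts against 152 ± 15.3 CPM, with 28.5% of its exon bases shared with another gene. Dkk3 and Mab21l3 had 0 counts in both pDC groups and 90.8 ± 17.5 and 96.2 ± 13.1 CPM in cDC1_WT. Ccl22, a chemokine that attracts regulatory T cells through CCR4, had 0 counts against 85.5 ± 21.5 CPM, at least 3245-fold lower. For the genes at 0 in pDC_TG the pDC_WT levels were at most 0.257 ± 0.727 CPM, the value of Tlr11.

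Transcription factors of dendritic cell fate split in both directions. Of 32 genes, 14 were called higher, 8 lower and 10 were not called (17.1% and 15.5% of all genes). Tcf4, the E protein of the pDC lineage, stood at 779.8, 692, 589 and 864 CPM in pDC_TG and ranged from 9.04 to 18.01 (median 12.5) CPM in cDC1_WT (log2 fold change 5.803, SE 0.15, adjusted p = 1.34e-23). Its level in pDC_WT was 718 ± 94.5 CPM and did not pass the test against pDC_TG (log2 fold change 0.03, SE 0.14, adjusted p = 0.962). Zeb2, a repressor that favours pDC and cDC2 over cDC1, was 199 ± 44.6 against 1.81 ± 2.13 CPM (log2 fold change 6.73, SE 0.54, adjusted p = 1.10e-11). Spib was 1245 ± 135 against 6.197 ± 4.15 CPM, Runx2 495 ± 80.5 against 7.004 ± 2.38 CPM, and Ets1 277 ± 26.5 against 1.03 ± 1.201 CPM. Id2, the inhibitor of E proteins, was 5.78 ± 1.95 CPM in pDC_TG and 1602 ± 233 CPM in cDC1_WT (log2 fold change -8.11, SE 0.23, adjusted p = 4.19e-23). Zbtb46, a factor of the conventional lineages, was 4.32 ± 1.93 against 215 ± 30.9 CPM (log2 fold change -5.63, SE 0.48, adjusted p = 3.09e-11). Nfil3, which acts upstream of the cDC1 lineage, was not called. Its levels were 97.1, 129, 177 and 132 CPM in pDC_TG, from 48.5 to 176 (median 93.8) CPM in cDC1_WT and 32.9 ± 11.8 CPM in pDC_WT, so pDC_TG overlapped cDC1_WT and stood above pDC_WT (log2 fold change 2.02, SE 0.28, adjusted p = 4.22e-06). Etv6 and Cbfa2t3 passed the adjusted p but not the fold (log2 fold change -0.700, SE 0.12, adjusted p = 1.59e-05 for Etv6; log2 fold change -0.79, SE 0.16, adjusted p = 8.95e-05 for Cbfa2t3).

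Among the other 8 interferon regulatory factors, 2 were called higher, 2 lower and 4 were not called, beside 17.1% and 15.5% of all genes. Irf4, the relative of IRF8 that shares its DNA partners, stood at 329.6, 519.6, 399.9 and 488 CPM in pDC_TG, from 1.09 to 10.7 (median 7.404) CPM in cDC1_WT and from 95.9 to 253 (median 133) CPM in pDC_WT. All 4 pDC_TG libraries were above every cDC1_WT library (log2 fold change 5.998, SE 0.36, adjusted p = 1.48e-14), and Irf4 was also higher in pDC_TG than in pDC_WT (log2 fold change 1.58, SE 0.32, adjusted p = 7.75e-04). Irf7, the factor that amplifies type I interferon induction, was 676 ± 49.9 CPM in pDC_TG, 184 ± 22.7 CPM in cDC1_WT and 629.7 ± 118 CPM in pDC_WT, and only the step from cDC1_WT was called (log2 fold change 1.87, SE 0.12, adjusted p = 1.60e-14; log2 fold change 0.102, SE 0.12, adjusted p = 0.695 from pDC_WT). Irf5, which acts below Toll-like receptors, was 143 ± 29.996 against 732 ± 19.5 CPM (log2 fold change -2.36, SE 0.11, adjusted p = 2.18e-17) and lower than the 318 ± 43.2 CPM of pDC_WT (log2 fold change -1.15, SE 0.11, adjusted p = 1.72e-09). For Irf5 the deleted pDC lay further from cDC1 than control pDC. Irf2 was 107 ± 17.5 CPM in pDC_TG, 62.6 ± 9.36 CPM in cDC1_WT and 57.3 ± 9.45 CPM in pDC_WT, and Irf1 202 ± 23.2, 183 ± 44.7 and 360.3 ± 24.03 CPM. Irf2 was not called at a log2 fold change of 0.77 and was called at 1.07 when libraries were scaled by total counts alone.

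Receptors for growth factors and cytokines showed 7 genes higher, 4 lower and 6 not called of 17, beside 17.1% and 15.5% of all genes. Flt3, the receptor that sustains all dendritic cells, was 460.2 ± 65.6 CPM in pDC_TG and 473 ± 38.8 CPM in cDC1_WT and was not called, and pDC_WT held less (276 ± 33.5 CPM; log2 fold change 0.74, SE 0.10, adjusted p = 1.87e-06 for pDC_TG over pDC_WT). Il7r, the interleukin-7 receptor of lymphoid cells, was 187 ± 26.5 against 3.96 ± 2.601 CPM (log2 fold change 5.55, SE 0.36, adjusted p = 8.18e-14). The common gamma chain gene Il2rg was 498 ± 23.2 against 70.7 ± 11.8 CPM. Csf2ra, the alpha chain of the GM-CSF receptor, was 15.5 ± 3.72 against 209 ± 17.99 CPM (log2 fold change -3.75, SE 0.16, adjusted p = 8.61e-19), while Csf2rb, its beta chain gene, was not called. The related gene Csf2rb2, which is not taken here as a chain of that receptor, was 309.7 ± 102 against 40.97 ± 5.87 CPM (log2 fold change 2.92, SE 0.18, adjusted p = 8.63e-15). Csf2rb and Csf2rb2 are near copies, so reads may be split between them. Ifngr1, a chain of the interferon-gamma receptor, was 101 ± 15.3 against 1383 ± 62.4 CPM (log2 fold change -3.78, SE 0.12, adjusted p = 5.16e-22). Kit was 47.6 ± 14.7 against 363 ± 50.7 CPM (log2 fold change -2.93, SE 0.20, adjusted p = 1.08e-13).

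**Figure D3:**
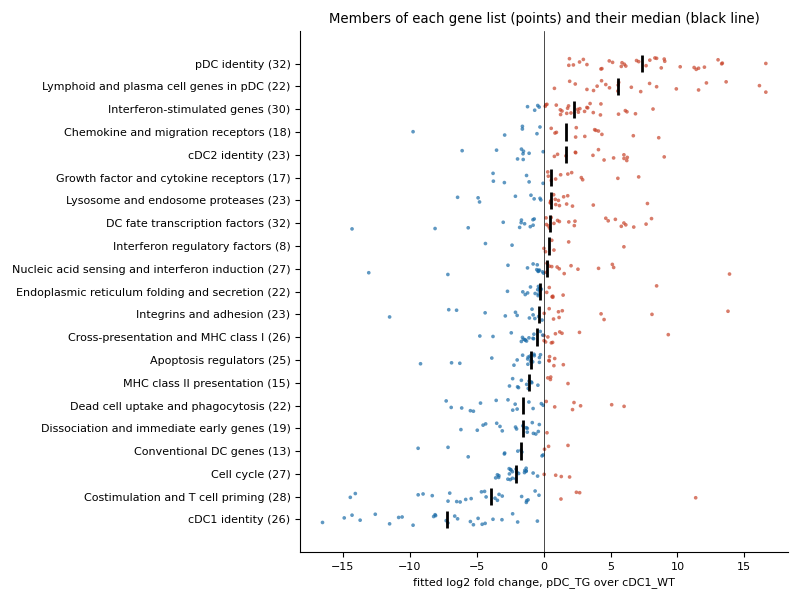
Fitted log2 fold change of pDC_TG over cDC1_WT for each tested member of 21 gene lists (points, red above 0 and blue below), with the list median as a black line and the number of tested members in brackets. Medians run from -7.21 for cDC1 identity to 7.38 for pDC identity, and costimulation (-3.96) and interferon-stimulated genes (2.30) lie far to either side of 0.

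Nucleic acid sensors lay on both sides. Of 27 genes of sensing and interferon induction, 9 were called higher, 4 lower and 14 were not called. Over all genes 17.1% were higher and 15.5% lower, so the share of lower sensors was near the background. Tlr7, the endosomal receptor for single-stranded RNA, stood at 284, 219.8, 212 and 226 CPM in pDC_TG and at no more than 0.0435 CPM in any cDC1_WT library. Tlr3, the receptor for double-stranded RNA, was 5.33, 2.12, 1.697 and 0.766 CPM in pDC_TG and from 283 to 421 (median 346) CPM in cDC1_WT, a log2 fold change of -7.15 that went to -7.83 without pDC_TG replicate 1. Tlr13, a receptor for bacterial ribosomal RNA, had counts in 1 of 4 pDC_TG libraries and 193 ± 27.3 CPM in cDC1_WT. Unc93b1, the chaperone shared by these receptors, was 1431 ± 145 and 1230.3 ± 94.6 CPM and was not called. Slc15a4, a lysosomal transporter needed for signalling from TLR7 and TLR9, was 289 ± 21.2 against 48.8 ± 14.9 CPM (log2 fold change 2.57, SE 0.18, adjusted p = 3.15e-13). Ddx58, which encodes the cytosolic RNA sensor RIG-I, stood at 61.02, 51.1, 67.8 and 41.9 CPM in pDC_TG, from 0 to 3.76 (median 1.12) CPM in cDC1_WT and from 1.08 to 5.67 (median 3.203) CPM in pDC_WT. Every pDC_TG library was above every library of both control groups (log2 fold change 5.23, SE 0.57, adjusted p = 6.43e-09 over cDC1_WT; log2 fold change 4.04, SE 0.54, adjusted p = 2.61e-06 over pDC_WT). Tlr7, by contrast, was lower in pDC_TG than in pDC_WT (log2 fold change -0.71, SE 0.14, adjusted p = 4.32e-04).

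Interferon-stimulated genes were higher in the deleted pDC than in cDC1_WT as a group. Of 30, 21 were called higher, 1 lower and 8 were not called, against 17.1% and 15.5% of all genes, with a median log2 fold change of 2.30. In control pDC over cDC1_WT the median was 1.13, and from pDC_WT to pDC_TG 19 of the 30 were higher and 2 lower by adjusted p alone, against 7.72% and 7.04% of all genes. The summed level was 2950 to 3518 CPM in pDC_TG, 2621 to 3506 CPM in pDC_WT and 1159 to 1491 CPM in cDC1_WT. In the sum, which the most abundant members dominate, pDC_TG therefore overlapped pDC_WT. Rtp4, a chaperone of membrane receptors induced by interferon, stood at 121, 132, 182 and 165 CPM in pDC_TG, from 0 to 1.68 (median 0.356) CPM in cDC1_WT and from 0.392 to 3.14 (median 1.26) CPM in pDC_WT (log2 fold change 8.17, SE 0.54, adjusted p = 1.17e-13 over cDC1_WT). Both control groups were near 0 for Rtp4, and all 4 pDC_TG libraries were far above them. Ifit3, which binds viral RNA complexes, was 34.4, 34.5, 50.2 and 34.6 CPM in pDC_TG, from 0 to 2.45 (median 0.693) CPM in cDC1_WT and from 0.641 to 3.64 (median 1.58) CPM in pDC_WT (log2 fold change 5.596, SE 0.58, adjusted p = 1.82e-09). Ifit3 and Ifit3b are near copies and reads may be split between them. Ifit1 was 35.98 ± 3.17 CPM in pDC_TG, 1.88 ± 1.52 CPM in cDC1_WT and 5.11 ± 2.53 CPM in pDC_WT. Oasl2, a member of the oligoadenylate synthetase family, was 190.3 ± 31.3, 2.75 ± 1.81 and 49.7 ± 12.7 CPM (log2 fold change 6.104, SE 0.31, adjusted p = 2.96e-16). Isg15, a ubiquitin-like modifier, was 48.7 ± 10.998, 14.7 ± 4.27 and 23.9 ± 7.81 CPM (log2 fold change 1.73, SE 0.22, adjusted p = 8.53e-08), and Rsad2, the enzyme viperin, was 33.7 ± 4.57, 5.76 ± 2.41 and 15.6 ± 3.67 CPM (log2 fold change 2.55, SE 0.24, adjusted p = 1.43e-10). Mx1 (5.38 ± 2.16 and 8.53 ± 2.79 CPM) and Eif2ak2 (6.97 ± 1.54 and 9.43 ± 3.74 CPM) were not called. Ifitm3, which blocks viral entry, was called lower (38.04 ± 10.7 against 87.5 ± 12.8 CPM; log2 fold change -1.200, SE 0.20, adjusted p = 5.40e-06), but not when libraries were scaled by total counts alone (log2 fold change -0.91). Bst2 belongs to this list and to the pDC identity list.

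**Figure D4:**
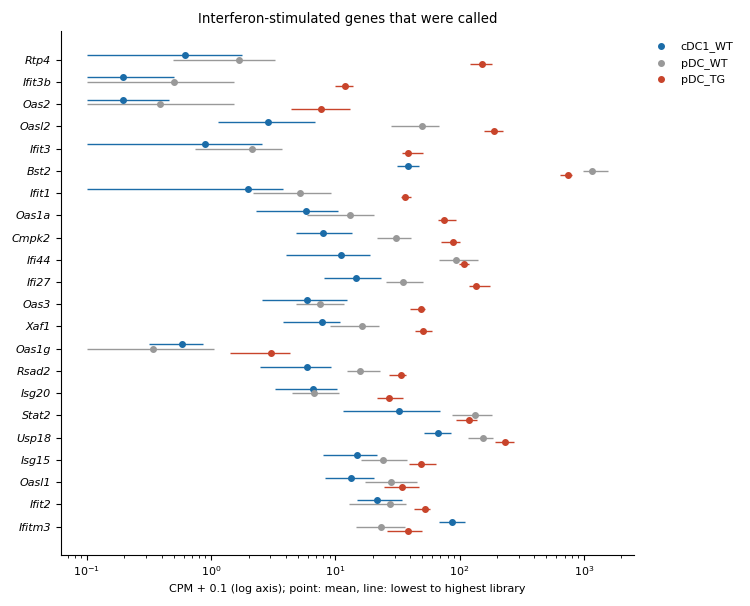
Levels of the 22 interferon-stimulated genes that were called, as CPM + 0.1 on a log axis, sorted by fold change, with the mean as a point and the lowest to highest library as a line for cDC1_WT (blue, 8 libraries), pDC_WT (grey, 8 libraries) and pDC_TG (red, 4 libraries). In the upper part of the plot pDC_TG stands right of both controls, as for Rtp4, Ifit3 and Oasl2, while Ifitm3 at the bottom is highest in cDC1_WT.

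The upstream windows of 4 of these genes are printed as examples. The genes were chosen after their levels were seen, and their means were higher in pDC_TG than in cDC1_WT. The windows were chosen for carrying the interferon-stimulated response element, the site that IRF proteins and the ISGF3 complex bind. Each is the 250 bases before the RefSeq transcription start (GRCm38.p6, the assembly called mm10 in the processing notes), read on the gene's strand. Capitals mark GAAANNGAAA on either strand (shown as its complement where it lies on the opposite strand), and overlapping matches are joined.
Ifit1, chr19:34640639-34640888, + strand: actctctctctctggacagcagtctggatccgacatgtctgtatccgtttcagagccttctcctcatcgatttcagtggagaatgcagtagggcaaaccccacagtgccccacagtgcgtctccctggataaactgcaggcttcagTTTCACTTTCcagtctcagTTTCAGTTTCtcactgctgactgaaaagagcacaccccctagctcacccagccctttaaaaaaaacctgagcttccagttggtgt
Ifit3, chr19:34583279-34583528, + strand: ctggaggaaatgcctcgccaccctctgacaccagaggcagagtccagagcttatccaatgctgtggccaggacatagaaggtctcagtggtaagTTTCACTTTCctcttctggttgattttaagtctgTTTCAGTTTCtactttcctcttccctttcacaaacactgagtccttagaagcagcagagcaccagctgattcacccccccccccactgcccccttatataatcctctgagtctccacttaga
Isg15, chr4:156200819-156201068, - strand: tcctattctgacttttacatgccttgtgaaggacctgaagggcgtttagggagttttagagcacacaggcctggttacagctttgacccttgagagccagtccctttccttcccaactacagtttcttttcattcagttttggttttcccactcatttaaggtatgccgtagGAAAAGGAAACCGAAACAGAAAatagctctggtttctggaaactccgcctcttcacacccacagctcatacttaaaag
Rsad2, chr12:26456453-26456702, - strand: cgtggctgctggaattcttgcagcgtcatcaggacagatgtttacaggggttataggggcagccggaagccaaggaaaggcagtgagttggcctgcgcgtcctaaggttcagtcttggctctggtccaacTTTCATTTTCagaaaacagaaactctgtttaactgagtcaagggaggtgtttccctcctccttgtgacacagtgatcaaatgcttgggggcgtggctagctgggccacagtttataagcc
The motif GAAANNGAAA lay in the window of 11 of the 21 interferon-stimulated genes that had a promoter in the RefSeq table (52.4%), against 936 of 27025 genes in that table (3.46%) with windows of equal length. The related composite motif GGAANNGAAA, which ETS factors and IRF8 or IRF4 can bind together, lay in 2 of 21 (9.52%) against 2.68% of the table. Of the 32 pDC identity genes 24 had a window and 2 of these held GAAANNGAAA (8.33%), and of the 26 cDC1 identity genes 19 had a window and 2 held it (10.5%). The windows of Oasl2, Xaf1 and Ddx58 held neither motif. These matches describe the letters in the window only.

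Genes of dead cell uptake and phagocytosis were more often lower than higher. Of 22 tested, 4 were called higher, 10 lower and 8 were not called, beside 17.1% higher and 15.5% lower of all genes, so the share of higher genes was near the background. The median log2 fold change was -1.54 (-1.06 with 1 gene at its bound), and 2 of 24 were not tested. For pDC_WT over cDC1_WT the median was -1.55. Cd36, a scavenger receptor for oxidised lipids and dying cells, stood at 28.02, 15.7, 22.4 and 17.8 CPM in pDC_TG and from 832 to 1047 (median 919) CPM in cDC1_WT (log2 fold change -5.47, SE 0.52, adjusted p = 4.16e-10). Havcr2, which encodes TIM-3, a receptor for phosphatidylserine, was 4.86 ± 2.05 against 338 ± 29.96 CPM (log2 fold change -6.12, SE 0.33, adjusted p = 1.13e-15). Ly75, the endocytic receptor DEC-205, was 1.03 ± 0.738 against 160.2 ± 28.3 CPM (log2 fold change -7.28, SE 0.81, adjusted p = 8.70e-09). The higher genes included Cd300lf (95.3 ± 11.7 against 2.81 ± 1.36 CPM), another phosphatidylserine receptor, and the kinase Syk (232 ± 46.2 against 48.03 ± 10.98 CPM).

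Of 26 genes of cross-presentation and MHC class I loading, 4 were called higher, 10 lower and 12 were not called. Over all genes 17.1% were higher and 15.5% lower, so the share of higher members was near the background. Wdfy4, which is required for cross-presentation of cell-associated antigen, was 93.6 ± 39.3 CPM in pDC_TG against 1286 ± 287 CPM (log2 fold change -3.78, SE 0.26, adjusted p = 2.53e-13). Tap1, a chain of the peptide transporter, was 331 ± 26.1 against 1048 ± 135 CPM (log2 fold change -1.66, SE 0.11, adjusted p = 4.44e-14). The class I genes themselves did not reach a 2-fold change: B2m was 4838 ± 598 against 3238 ± 267 CPM, H2-K1 3253 ± 213 against 2039 ± 161 CPM and H2-D1 1985 ± 122 against 1791 ± 108 CPM. Subunits of the NADPH oxidase, which slows antigen breakdown in the phagosome, lay on both sides. Cybb, its catalytic chain, stood at 1367, 1161, 1013 and 1002 CPM in pDC_TG and from 0.865 to 4.14 (median 1.61) CPM in cDC1_WT (log2 fold change 9.31, SE 0.24, adjusted p = 3.95e-23). Ncf4, a regulatory subunit, was 39.03 ± 4.85 against 208 ± 12.02 CPM (log2 fold change -2.42, SE 0.12, adjusted p = 6.67e-17). Rac2, the GTPase that joins the oxidase, was 1298 ± 103 against 203 ± 16.3 CPM.

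Of 15 MHC class II genes, 8 were called lower in pDC_TG, 1 higher and 6 were not called, where 15.5% of all genes were lower and 17.1% higher. With libraries scaled by total counts alone 5 were called lower. H2-Ab1, a chain of the I-A molecule, stood at 6730.1, 6980.2, 7365 and 6963 CPM in pDC_TG and from 23638 to 27639 (median 25674) CPM in cDC1_WT (log2 fold change -1.88, SE 0.07, adjusted p = 1.94e-19). H2-Eb1 was 2369 ± 15.6 against 9122 ± 304 CPM (log2 fold change -1.94, SE 0.06, adjusted p = 2.29e-21) and higher than the 1789 ± 159 CPM of pDC_WT (log2 fold change 0.41, SE 0.06, adjusted p = 4.80e-06). March1, the ubiquitin ligase that removes class II from the surface, was 51.95 ± 12.4 against 258 ± 41.5 CPM (log2 fold change -2.31, SE 0.18, adjusted p = 1.32e-12). H2-DMb2, a chain of the peptide editor H2-DM, was the gene called higher (312 ± 35.4 against 88.3 ± 13.6 CPM; log2 fold change 1.82, SE 0.11, adjusted p = 6.54e-15). H2-Ob, a chain of the editor's inhibitor H2-O, was 191 ± 15.9 CPM in pDC_TG, 362 ± 51.2 CPM in cDC1_WT and 38.4 ± 5.14 CPM in pDC_WT. From pDC_WT to pDC_TG 7 of the 15 were higher and 2 lower by adjusted p alone (7.72% and 7.04% of all genes).

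Costimulatory ligands and T cell priming cytokines formed the list with the lowest median after cDC1 identity. Of 28 genes, 21 were called lower, 4 higher and 3 were not called (15.5% lower and 17.1% higher over all genes), with a median log2 fold change of -3.96 (-3.54 with 6 genes at their bound). For pDC_WT over cDC1_WT the median was -4.06. Cd83, a maturation marker, was 21.2 ± 13.8 against 2988 ± 578 CPM (log2 fold change -7.14, SE 0.37, adjusted p = 5.22e-16). The chemokine genes Cxcl9, which draws CXCR3-positive T cells, and Cxcl16 were 0.481 ± 0.592 against 337 ± 51.6 CPM and 0.613 ± 0.359 against 318 ± 44.1 CPM. The 2 chains of interleukin-12 lay on opposite sides. Il12b, the p40 chain, had 0 counts in pDC_TG and ranged from 76.4 to 146 (median 106) CPM in cDC1_WT, at least 4205-fold lower. Il12a, the p35 chain, had 0 counts in cDC1_WT and stood at 7.25, 19.7, 14.7 and 10.8 CPM in pDC_TG, at least 829.9-fold higher, with 4.55 ± 2.72 CPM in pDC_WT. The chemokine genes Ccl3 and Ccl4 were called higher (163 ± 20.8 against 25.1 ± 10.3 CPM and 1979 ± 469 against 363 ± 149 CPM), and Tnfsf9, the 4-1BB ligand, was 56.5 ± 10.02 against 22.99 ± 6.38 CPM (log2 fold change 1.297, SE 0.31, adjusted p = 7.68e-04). Ccl3 (log2 fold change 1.43, SE 0.26, adjusted p = 1.88e-04) and Tnfsf9 (log2 fold change 2.09, SE 0.31, adjusted p = 1.05e-05) were also higher in pDC_TG than in pDC_WT, which did not pass for Ccl4 (log2 fold change -0.06, SE 0.27, adjusted p = 0.952).

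Chemokine and migration receptors were higher in 9, lower in 3 and not called in 6 of 18 tested, with 17.1% and 15.5% over all genes. The share of lower receptors was near the background. Ccr1, a receptor for CCL3 and CCL5, stood at 155, 253, 135 and 149.9 CPM in pDC_TG, from 0 to 1.402 (median 0.277) CPM in cDC1_WT and from 2.69 to 42.4 (median 23.6) CPM in pDC_WT (log2 fold change 8.600, SE 0.65, adjusted p = 2.48e-12 over cDC1_WT; log2 fold change 3.03, SE 0.50, adjusted p = 6.20e-05 over pDC_WT). Ccr6 was 24.2 ± 6.75 against 0.2297 ± 0.329 CPM. Gpr183, the oxysterol receptor that positions dendritic cells in the spleen, was 633 ± 131 against 44.996 ± 19.1 CPM (log2 fold change 3.81, SE 0.27, adjusted p = 5.80e-13). Ccr7, which guides mature dendritic cells to T cell zones, was 125, 219.9, 167 and 199 CPM in pDC_TG, from 718 to 2142 (median 1356) CPM in cDC1_WT (log2 fold change -2.91, SE 0.25, adjusted p = 5.18e-11) and 57.7 ± 10.05 CPM in pDC_WT (log2 fold change 1.62, SE 0.21, adjusted p = 1.34e-06). Its pDC_TG level lay between those of the 2 control groups. Cxcr3, which was not called against cDC1_WT (71.8 ± 14.7 and 101 ± 14.4 CPM), was lower than in pDC_WT (212 ± 42.01 CPM; log2 fold change -1.57, SE 0.20, adjusted p = 6.28e-07). Cxcr4 was 282 ± 52.1 against 156 ± 25.8 CPM, not called at a log2 fold change of 0.85 and called at 1.15 under total count scaling.

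Integrins and adhesion molecules were higher in 7, lower in 8 and not called in 8 of 23 (17.1% and 15.5% of all genes). Cdh1, which encodes E-cadherin, was 218 ± 57.3 CPM against at most 0.04804 CPM in any cDC1_WT library. Cd81 and Cd9, both tetraspanins, were 7.03 ± 2.55 against 956 ± 60.9 CPM and 6.08 ± 3.23 against 553 ± 46.3 CPM. Itgae, the CD103 chain of cDC1, had counts in 1 pDC_TG library and 65.7 ± 30.6 CPM in cDC1_WT. Cadm1, an adhesion molecule used to identify cDC1, was 26.1 ± 3.83 against 539 ± 75.8 CPM (log2 fold change -4.37, SE 0.24, adjusted p = 8.36e-16). Itgax itself was not called. Its levels were 422, 391, 446 and 371 CPM in pDC_TG and from 328 to 508 (median 466) CPM in cDC1_WT, so all pDC_TG libraries lay within the cDC1_WT range (log2 fold change -0.12, SE 0.17, adjusted p = 0.598), and it was higher in pDC_TG than in pDC_WT (log2 fold change 1.38, SE 0.17, adjusted p = 3.73e-07). Itgam stood at 36.3, 35.5, 19.1 and 36.5 CPM in pDC_TG and at 1.41 ± 1.2997 and 0.401 ± 0.663 CPM in cDC1_WT and pDC_WT, but 68.7% of its exon bases overlap another gene.

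Genes shared by the conventional lineages and genes of cDC2 differed in both directions. Of 13 conventional dendritic cell genes 8 were called lower, 1 higher and 4 were not called (15.5% and 17.1% of all genes). Anpep, which encodes CD13, was 0, 1.29, 0 and 0 CPM in pDC_TG against 205 ± 28.4 CPM in cDC1_WT. Of 23 cDC2 identity genes 13 were called higher in pDC_TG, 5 lower and 5 were not called (17.1% and 15.5%). Sirpa, the CD47 receptor used to sort cDC2, was 299.6 ± 28.4 against 4.02 ± 2.99 CPM (log2 fold change 6.21, SE 0.38, adjusted p = 2.10e-14), and Cd4 469.9 ± 26.1 against 7.31 ± 2.34 CPM (log2 fold change 6.004, SE 0.19, adjusted p = 7.56e-22). Since Sirpa was a sorting marker, its difference from cDC1_WT may be set by the gates and is not read as a finding. Clec10a was 35.2 ± 12.1 against 0.06404 ± 0.0837 CPM (log2 fold change 9.01, SE 0.39, adjusted p = 4.18e-18), with 251 ± 36.6 CPM in pDC_WT. Il1b, the interleukin-1 beta gene, went the other way at 17.6 ± 11.8 against 1196 ± 410.4 CPM (log2 fold change -6.08, SE 0.67, adjusted p = 1.34e-08), as did Relb (59.96 ± 10.1 against 189 ± 46.05 CPM). The Relb factor acts in the non-canonical NF-kappaB pathway. Summed over the list, cDC2 identity genes reached 4426 to 4983 CPM in pDC_TG and 3592 to 4644 CPM in pDC_WT, which overlapped. The sum was 1788 to 3039 CPM in cDC1_WT and 9975 to 13772 CPM in cDC2_WT.

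Lymphoid and plasma cell genes known from pDC were higher in 19 and not called in 3 of 22 tested, against 17.1% of all genes higher, with a median log2 fold change of 5.59. For pDC_WT over cDC1_WT the median was 5.83. The list was chosen with earlier results of these data known, so this count is a description. Blk, a tyrosine kinase of B cells, stood at 119.9, 115, 132 and 111 CPM in pDC_TG, at no more than 0.134 CPM in any cDC1_WT library and at 7.52 ± 1.53 CPM in pDC_WT (log2 fold change 3.99, SE 0.25, adjusted p = 9.55e-13). Cd28, the T cell costimulatory receptor, was 63.4 ± 11.5 CPM against 0 counts in cDC1_WT, at least 4015-fold higher, and 79.5 ± 20.7 CPM in pDC_WT. Summed over all 25 genes, the list reached 5921 to 7733 CPM in pDC_TG, 3698 to 4835 CPM in pDC_WT and 12.2 to 31.7 CPM in cDC1_WT. Genes kept as markers of other lymphocytes included some of this kind. Beside the 17.1% of all genes called higher, 6 of 10 tested B cell markers were called higher and 1 lower, Cd79b at 90.96 ± 10.3 against 2.99 ± 1.26 CPM and Cd22 at 42.1 ± 3.78 against 9.33 ± 5.002 CPM. Ms4a1, which encodes CD20, was the lower one at 1.91 ± 2.46 against 73.7 ± 20.5 CPM. Among 6 tested T cell markers 3 were higher and 3 were not called, led by Cd8b1 at 1151 ± 180.3 against 2.92 ± 1.24 CPM (log2 fold change 8.61, SE 0.34, adjusted p = 9.12e-19), the CD8 beta chain, with 752 ± 96.5 CPM in pDC_WT. Among 6 tested NK cell markers 2 were higher and 4 were not called, led by Klrd1, the CD94 chain, at 676 ± 107 against 6.097 ± 3.27 CPM (log2 fold change 6.799, SE 0.29, adjusted p = 5.23e-18) and 226 ± 63.6 CPM in pDC_WT. 

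Of the remaining marker lists, 2 of 5 tested neutrophil genes were called higher. S100a8 was 0.2303, 0.227, 2.03 and 57.7 CPM in pDC_TG and 0.458 ± 0.996 CPM in cDC1_WT, so that its call rests on replicate 4 (log2 fold change 5.02, and 0.86 without that library). S100a9 was 0, 0.113, 0.399 and 43.7 CPM, with a log2 fold change of 3.94 that turned to -2.02 without replicate 4. Of 14 monocyte and macrophage genes 2 were higher, 8 lower and 4 were not called (17.1% and 15.5% of all genes). Ccr2 was 589 ± 101 against 112 ± 40.2 CPM (log2 fold change 2.39, SE 0.29, adjusted p = 4.10e-08), and Lyz2, the lysozyme gene, was 0, 1.74, 3.59 and 26.3 CPM in pDC_TG against 347 ± 73.7 CPM in cDC1_WT. Without pDC_TG replicate 4 the log2 fold change of Lyz2 went from -5.44 to -7.57. Of 4 tested erythroid and platelet genes, 0 were called by edgeR, 0 had an unadjusted p under 0.05, and DESeq2 called 0.

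Genes of protein folding in the endoplasmic reticulum (ER), a pathway that supports secretion in pDC, mostly stayed under a 2-fold difference. Of 22, 4 were called lower, 2 higher and 16 were not called. The share of all genes was 15.5% lower and 17.1% higher, so the list's calls were near or below the background. Hspa5, the chaperone BiP, stood at 774, 854, 789.9 and 813 CPM in pDC_TG and from 1688 to 2457 (median 2139.7) CPM in cDC1_WT (log2 fold change -1.37, SE 0.08, adjusted p = 3.07e-15), and at 1272 ± 72.9 CPM in pDC_WT (log2 fold change -0.66, SE 0.08, adjusted p = 2.44e-07). Sdf2l1 was 93.9 ± 15.8 against 609 ± 73.8 CPM (log2 fold change -2.698, SE 0.13, adjusted p = 1.25e-17) and Creld2 54.5 ± 9.43 against 159.9 ± 25.4 CPM (log2 fold change -1.55, SE 0.14, adjusted p = 3.14e-11). Xbp1, the transcription factor of the unfolded protein response, was 456 ± 37.1 CPM in pDC_TG, 282 ± 29.1 CPM in cDC1_WT and 910.0 ± 108 CPM in pDC_WT, a step from pDC_WT of log2 fold change -0.998, SE 0.10, adjusted p = 8.36e-09. Mzb1, an ER protein of antibody-secreting cells, was 30.7, 22.96, 31.9 and 74.8 CPM in pDC_TG, 0.109 ± 0.221 CPM in cDC1_WT and 197 ± 57.2 CPM in pDC_WT, with 57.2% of its exon bases shared. From pDC_WT to pDC_TG 14 of the 22 were lower by adjusted p alone, against 7.04% of all genes. The summed level was 4766 to 5306 CPM in pDC_TG, 7216 to 8339 CPM in pDC_WT and 7252 to 9208 CPM in cDC1_WT, so both control groups were above every pDC_TG library.

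Of 23 lysosome and endosome genes, 8 were called higher, 4 lower and 11 were not called, where 17.1% of all genes were higher and 15.5% lower. The share of lower genes was near the background. The cathepsin genes Ctsl and Ctsd were 1323 ± 114 against 6.12 ± 1.86 CPM (log2 fold change 7.76, SE 0.20, adjusted p = 1.33e-23) and 353 ± 33.99 against 26.9 ± 5.62 CPM (log2 fold change 3.71, SE 0.13, adjusted p = 5.57e-21). Ctsb was 3662 ± 199.8 against 821 ± 34.98 CPM, with 5724 ± 339.7 CPM in pDC_WT (log2 fold change -0.64, SE 0.06, adjusted p = 5.71e-10). Cst3, the cathepsin inhibitor cystatin C, stood at 739.7, 645, 771 and 786 CPM in pDC_TG and from 17448 to 23646 (median 20504) CPM in cDC1_WT (log2 fold change -4.79, SE 0.10, adjusted p = 2.24e-25). Psap, the precursor of saposins, was 3469 ± 345 against 14933 ± 1603 CPM (log2 fold change -2.11, SE 0.17, adjusted p = 4.73e-12) and 7036 ± 1419.9 CPM in pDC_WT (log2 fold change -1.02, SE 0.16, adjusted p = 1.80e-05). From pDC_WT to pDC_TG 10 of the 23 were lower and 1 higher by adjusted p alone (7.04% and 7.72% of all genes).

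Apoptosis regulators were lower in 11 and not called in 14 of 25 tested, against 15.5% of all genes lower, and 7 were called lower under total count scaling. Bcl2a1a, Bcl2a1b and Bcl2a1d, near copies that encode the survival protein A1, were at 0.176 ± 0.351, 2.81 ± 1.75 and 1.08 ± 0.282 CPM in pDC_TG. In cDC1_WT they were at 114 ± 21.7, 216 ± 35.3 and 129 ± 23.3 CPM, and in pDC_WT at 0.0469 ± 0.0869, 1.11 ± 0.793 and 0.441 ± 0.334 CPM. The split of reads among these copies is uncertain, but all of them were low in both pDC groups. Fas, the death receptor, was 1.36 ± 0.618 against 19.9 ± 5.82 CPM (log2 fold change -3.87, SE 0.43, adjusted p = 4.28e-09). Casp8 was 102 ± 10.3 against 74.5 ± 10.4 CPM and was not called.

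Cell cycle genes were lower in 21, higher in 2 and not called in 4 of 27, against 15.5% lower and 17.1% higher over all genes, with a median log2 fold change of -2.06. Cdk1, the mitotic kinase, was 2.42, 2.46, 3.76 and 6.99 CPM in pDC_TG and from 33.4 to 45.5 (median 40.3) CPM in cDC1_WT (log2 fold change -3.34, SE 0.33, adjusted p = 6.10e-10). Top2a, a topoisomerase of dividing cells, was 2.76, 3.75, 7.16 and 15.99 CPM in pDC_TG and from 34.4 to 56.5 (median 47.9) CPM in cDC1_WT, and replicate 4 was highest for both genes. Without replicate 4 the log2 fold change of Top2a went from -2.67 to -3.36. Cdkn1a, the inhibitor p21, was also lower (6.48 ± 3.47 against 71.1 ± 17.1 CPM; log2 fold change -3.45, SE 0.32, adjusted p = 1.09e-10). Ccnd1, which encodes cyclin D1, was 394, 157, 188 and 304 CPM in pDC_TG and from 57.4 to 81.5 (median 64.97) CPM in cDC1_WT (log2 fold change 1.94, SE 0.19, adjusted p = 2.79e-10). Ccnd2 was 20.95, 14.2, 23.6 and 67.6 CPM against 12.6 ± 3.46 CPM (log2 fold change 1.32, SE 0.28, adjusted p = 2.43e-04), and its log2 fold change was 0.64 without replicate 4, under the fold needed for a call. From pDC_WT to pDC_TG 16 of the 27 were higher by adjusted p alone (7.72% of all genes), and the summed level was 734 to 1335 CPM in pDC_TG, 624 to 789 CPM in pDC_WT and 1880 to 2249 CPM in cDC1_WT.

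Immediate early and dissociation-related genes were lower in 12 and not called in 7 of 19, against 15.5% of all genes lower. Egr3 and Egr2 were 3.71 ± 1.42 against 268 ± 65.03 CPM (log2 fold change -6.18, SE 0.59, adjusted p = 3.63e-10) and 14.8 ± 7.39 against 459 ± 64.1 CPM (log2 fold change -4.95, SE 0.43, adjusted p = 5.01e-11). Fos (2893 ± 427 and 4331 ± 914 CPM) and Jun (965 ± 356 and 809 ± 469 CPM) were not called. These genes respond to tissue handling as well as to signalling in vivo, their summed level was 9740 to 10801 CPM in pDC_TG, 8828 to 12487 CPM in pDC_WT and 20152 to 26484 CPM in cDC1_WT, and their part in other results was not tested.

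Some genes stood at the cDC1 level in control pDC and away from it in Cre-positive pDC, and others did the reverse. A gene entered the first set when pDC_WT and cDC1_WT were under 2-fold apart, pDC_TG was called against cDC1_WT and against pDC_WT, and the highest group held at least 20 CPM. There were 72 such genes, 47 above and 25 below cDC1_WT. These values chose the genes, so they are given as a description with no test. Chst2, a sulfotransferase of carbohydrate ligands, went from 0.731 ± 1.14 CPM in pDC_WT to 71.9 ± 18.1 CPM in pDC_TG with 1.404 ± 0.749 CPM in cDC1_WT. Oas3, an oligoadenylate synthetase, went from 7.35 ± 2.34 to 48.7 ± 5.77 CPM beside 5.83 ± 3.104 CPM. Tmem176b, a cation channel of endosomes, went from 38.4 ± 8.67 to 242 ± 49.1 CPM beside 76.1 ± 25.9 CPM. Spry1, an inhibitor of receptor tyrosine kinase signalling, went from 8.41 ± 3.56 to 41.3 ± 9.17 CPM beside 15.3 ± 3.48 CPM, and Ndrg1, a stress-responsive gene, from 14.1 ± 4.93 to 68.3 ± 6.94 CPM beside 21.1 ± 6.44 CPM. Sh2d5 and Gm12250, an interferon-inducible GTPase gene, moved the same way. Slc22a23, a solute carrier, went down from 21.1 ± 3.36 CPM to 0, 3.896, 0 and 3.93 CPM in the 4 pDC_TG libraries beside 36.2 ± 11.4 CPM. Mean levels in cDC2_WT were 1195 CPM for Tmem176b, 51.5 for Oas3, 20.3 for Gm12250 and 18.8 for Chst2. They were 13.4 CPM for Ndrg1, 5.51 for Slc22a23, 5.43 for Spry1 and 0.189 for Sh2d5. Leaving the cDC1 level was thus in part a step toward the cDC2_WT level, as for Tmem176b and Oas3, but not for Spry1 or Sh2d5.

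In the opposite set, pDC_WT was called against cDC1_WT and against pDC_TG, and pDC_TG was under 2-fold from cDC1_WT. It held 57 genes, 31 that were above and 26 that were below cDC1_WT in control pDC. Ccrl2, a decoy receptor that presents chemerin, went from 3.24 ± 1.74 CPM in pDC_WT to 47.8 ± 4.65 CPM in pDC_TG beside 75.2 ± 20.6 CPM in cDC1_WT. Fosl2, an AP-1 factor, went from 5.91 ± 2.496 to 35.7 ± 9.06 CPM beside 35.5 ± 14.1 CPM, and Jup, the adhesion protein plakoglobin, from 5.13 ± 2.41 to 24.5 ± 5.57 CPM beside 38.9 ± 9.196 CPM. Nfil3 and H2-Ob, described above, belong here, as does Tmem176a (17.6 ± 4.102 to 110.3 ± 27.5 CPM beside 63.1 ± 21.02 CPM). Tmem176a was not called against cDC1_WT, but it passed 2-fold and left this set with control replicates 1 to 4 (log2 fold change 1.12), with the replicate block (1.13) and with total count scaling (1.097). Downward, Slc52a3, a riboflavin transporter, went from 42.96 ± 11.9 CPM to 1.04, 1.02, 4.96 and 12.7 CPM beside 4.18 ± 2.96 CPM. Cd209e, a C-type lectin, went from 24.7 ± 13.9 to 3.39 ± 1.56 CPM beside 6.49 ± 3.31 CPM. Mean levels in cDC2_WT were 774 CPM for Ccrl2, 752 for Tmem176a, 415 for H2-Ob and 148 for Fosl2, all above cDC1_WT. They were 95.6 CPM for Nfil3, 30.5 for Jup, 1.90 for Cd209e and 0.622 for Slc52a3, all below cDC1_WT. For each of these genes the step from pDC_WT went toward the cDC2_WT level too, so it was not particular to cDC1.

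**Figure D5:**
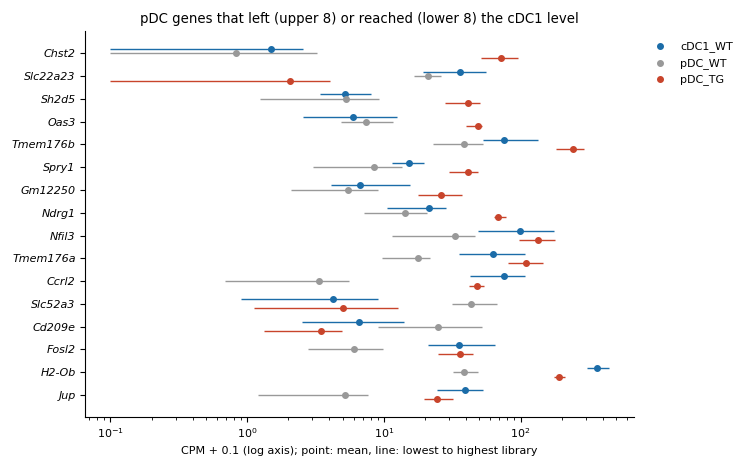
Levels of the 8 genes of each set with the largest steps from pDC_WT to pDC_TG, as CPM + 0.1 on a log axis, with the mean as a point and the lowest to highest library as a line for cDC1_WT (blue), pDC_WT (grey) and pDC_TG (red). In the upper 8 genes grey and blue lie close together with red apart, and in the lower 8 red lies on or near blue with grey apart.

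Since IRF8 is high in both control cDC1 and control pDC, genes that these cells share over cDC2 were followed in pDC_TG. A gene was taken as shared when both cDC1_WT and pDC_WT were called higher than cDC2_WT and both held at least 20 CPM, which 137 genes met. The levels in cDC1_WT and pDC_WT chose these genes, so their counts are a description. In pDC_TG 31 of them were called lower than cDC1_WT, 20 higher and 86 were not called. Over all genes 15.5% were lower and 17.1% higher, so the share of higher genes was near the background. In pDC_WT 13 of the 137 were lower than cDC1_WT and 34 higher, for which no share over all genes is given here. The median log2 difference from cDC1_WT was -0.29 in pDC_TG and 0.18 in pDC_WT. Because the pDC_WT level helped choose the genes, no shift between the pDC groups is read from these counts or medians. The 8 lowest against cDC1_WT were Cd36, Clec9a, Cd24a, Cadm1, Slco3a1, Slc22a23, Pdia5 and Laptm4b. Slco3a1, an organic anion transporter, was 8.25 ± 4.19 CPM in pDC_TG, 35.4 ± 6.67 CPM in pDC_WT and 167 ± 26.1 CPM in cDC1_WT. Pdia5, a disulfide isomerase of the ER, was 22.3 ± 3.37, 55.7 ± 7.44 and 353 ± 32.3 CPM in the same order, and Laptm4b, a lysosomal membrane protein, 22.3 ± 5.93, 39.2 ± 6.98 and 216 ± 36.4 CPM. For each of these 8 genes the mean ran from lowest in pDC_TG through pDC_WT to highest in cDC1_WT. They were picked for their low pDC_TG level relative to cDC1_WT, so this order is largely set by the choice and is no finding. Cd24a was also a marker by which cDC1 were sorted.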

How the data were processed

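Per the labels' protocols, RNA of dendritic cells sorted from spleen was amplified by SMART-Seq v4, a kit that does not mark strand, and sequenced as single 75-base reads. Per the submitters' processing notes, the build was mm10 and the tools included TopHat2 2.1.0, SAMtools 0.1.18, Trimmomatic 0.35 and FastQC 0.11.4. The files deposited by the authors hold raw counts per gene, and for these the counting tool and annotation are not given in the sources used here. Rows that name no gene were left out, and reads with no feature were 12.8% to 14.8% of pDC_TG and 8.23% to 12.4% of cDC1_WT libraries.

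Counts of all 28 libraries were fitted together with edgeR 4.0.16 (R 4.3.3), using TMM scaling, filterByExpr with a minimum count of 10 and total of 15, robust quasi-likelihood dispersions and 1 coefficient per group. A call needed an adjusted p below 0.05 and a log2 fold change of at least 1. The script was checked on simulated data. A 1.5-fold threshold, DESeq2 1.42.0, other scalings and filters, fewer libraries, a sex term read from Xist and Ddx3y, and leaving out each library were tried as alternatives. Positions and exon overlap come from GENCODE vM21 on GRCm38, and promoter windows from RefSeq.

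The comparison, the gene lists and the rule for naming genes were chosen with earlier results of these data known. Genes were named by the largest folds among calls, by up to 4 called members of a list in each direction and up to 3 uncalled ones with at least 10 CPM, by their place in the sets described, or from a list of 12 lineage genes. Ifit1, Isg15, Rsad2, Mx1, Eif2ak2 and Xaf1 and the genes of the marker check fall outside this rule and were chosen after their values were seen. The labels give pDC_TG and control libraries the same replicate numbers. The main fit did not pair samples by these numbers. Same-numbered libraries deviated from their group means with correlations of 0.00385 to 0.0627, and other pairs with -0.0665 to 0.0593. Same-numbered pDC_TG and cDC1_WT libraries cannot come from the same animal, since only the pDC_TG mice carried the Cre. Such low correlations cannot show whether the numbers pair the samples in another way. Whether same-numbered libraries of the control groups share a mouse was not tested, and the main fit treated all 28 libraries as independent. By Xist and Ddx3y, odd numbers read as female and even numbers as male in every group. Some members of the lists are not reported here by name, and counts over a list include them.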

Additional observations from a re-analysis of the deposited data

Results flagged for a closer look

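Of 315 sets of 4 or 8 libraries checked for the genes named, 39 held a library far from the others by Dixon's criterion, 19 in pDC_TG and 20 in cDC1_WT, where chance gives about 1 in 20. Replicate 4 was the library that stood apart in 9 of the 19 in pDC_TG. It was high for S100a8 (57.7 CPM), S100a9 (43.7 CPM), Lyz2 (26.3 CPM), Egr2 (25.8 CPM), Cd9 (10.9 CPM), Ccr9 (1096 CPM) and Bcl2a1a (0.702 CPM), and low for Oas3 (40.1 CPM) and Naaa (28.1 CPM). Replicate 2 of pDC_TG stood apart for Ccr1 (252.5 CPM), Ndrg1 (78.6 CPM), H2-D1 (1803 CPM), Rsad2 (26.9 CPM), Anpep (1.29 CPM), Itgae (0.0757 CPM) and Tlr13 (0.0757 CPM). Replicate 3 of pDC_TG stood apart for Ifit3 (50.2 CPM), Itgam (19.1 CPM) and Ncr1 (0.599 CPM).

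In cDC1_WT, replicate 4 stood apart for S100a8 (2.89 CPM), S100a9 (4.70 CPM), C1qa (3.15 CPM), Cybb (4.14 CPM), Fas (32.6 CPM), Gm12250 (15.5 CPM) and Ncf4 (183 CPM). Replicate 8 did so for Cd209e (13.8 CPM), Cd3e (2.21 CPM), Tmem176b (134 CPM) and Sdc1 (0.0961 CPM). The others were replicate 1 for Oasl2 (6.73 CPM) and Xbp1 (347 CPM), replicate 2 for Naaa (3314 CPM), replicate 3 for Id2 (1077 CPM) and Pdia5 (424 CPM), replicate 5 for Mzb1 (0.603 CPM), replicate 6 for Ccnd2 (19.8 CPM), and replicate 7 for Blk (0.134 CPM) and Mx1 (2.54 CPM).

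The difference between pDC_TG and cDC1_WT was tested for a dependence on sex, read from Xist and Ddx3y, over 13159 genes, and 2 genes passed. Slc22a23 was among them, with a fitted log2 difference of -9.51 between female and male mice (adjusted p = 3.29e-05, edgeR). Its level was 0 counts in pDC_TG replicates 1 and 3, which read as female, and 3.90 and 3.93 CPM in replicates 2 and 4, which read as male. The fitted size depends on the prior count because the female pDC_TG libraries are at 0.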

How the results depend on the processing

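Of 3768 values for 164 named genes under the alternatives, 3727 kept their direction and their side of the threshold, and 151 genes kept both under every alternative run. Leaving out 1 library at a time gave 2188 to 2267 genes called higher and 1950 to 2063 lower, and a log2 fold change of -1.56 to -1.35 for Irf8. By adjusted p alone, a test against a 1.5-fold change gave 2256 genes higher and 2103 lower. With total counts alone, 5 MHC class II genes were called lower, as were 7 apoptosis regulators and 0 interferon-stimulated genes, and 1 apoptosis regulator was called higher. A fit with the replicate number as a block, in the 12 libraries, called 1 ER gene, 1 cell cycle gene, 1 NK cell marker and 0 neutrophil markers higher, fewer than in the main fit. It called 1 apoptosis regulator higher, where the main fit called none. It called 5 monocyte and macrophage markers lower. In deviations from the group means, taken with no block, 1 of 4 pDC_TG libraries correlated best with the cDC1_WT library of its own number. Called NK cell markers were 1 with the 12 libraries alone and with a stricter filter. Called neutrophil markers were 1 with the 12 libraries alone and with DESeq2, 0 with control replicates 1 to 4 and 0 with a stricter filter. With no filter 1 erythroid gene was called lower. Leaving out 1 library gave 0 to 1 apoptosis regulators higher, 0 to 5 neutrophil markers higher and 0 to 1 lower, and 0 to 1 erythroid genes lower. The 5 neutrophil calls came without cDC1_WT replicate 4 and the 0 without pDC_TG replicate 4.

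Signs changed for genes that were not called, or that rest on 1 library. Leaving out 1 library at a time gave log2 fold changes of -2.02 to 6.15 for S100a9, -0.81 to 0.59 for Slc52a3, -0.37 to 1.86 for Cd3e, -0.13 to 0.024 for Flt3 and -0.11 to 0.18 for Fosl2. Without pDC_TG replicate 4 the first 3 of these turned negative. Control replicates 5 to 8 gave -0.58 for Cd3e, 0.024 for Flt3 and 0.037 for Itgax. Total counts alone gave 0.26 for Flt3 and 0.18 for Itgax. The cause of these changes was not tested. Depth limits the genes at 0 counts in a group, whose folds are lower bounds.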
